A study of Mus musculus with 11 samples.

Results

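CpG-sparse regions of intermediate to high methylation were described in ER-Hoxa9-Lys-GFP cells, as 500-bp tiles of the mm9 mouse genome. A tile was taken where it lay on chromosomes 1 to 19, held 3 to 9 listed CpG positions, had at least 30 CpG-read observations in every library, and had a methylation from 50% to under 90% when the reads of all 11 libraries were pooled. A CpG-read observation is 1 read at 1 CpG, and the methylation of a tile is the share of its observations that were methylated. This rule gave 4554 tiles, which were 9.15% of the 49760 tiles tested on chromosomes 1 to 19 and X, and 22.8% of the 19993 tested tiles on chromosomes 1 to 19 with 3 to 9 CpGs. The pooled level chose the tiles, so it is given as a description. The tiles are called partly methylated sparse tiles here. They are compared with 10528 sparse tiles at 90% or more, and with 2585 denser tiles, of 10 or more CpGs, at 50 to under 90%.

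In mammalian DNA, methylation sits mostly on cytosines followed by guanine, and maintenance enzymes copy it to the new strand at each division. CpGs outside CpG islands are mostly methylated, and levels between full and no methylation are found at enhancers, at the edges of islands and at sites where transcription factors bind. In blood cells many enhancers lose methylation as progenitors mature, by active removal or by failed copying over divisions. Reduced representation bisulfite sequencing reads CpGs near the cut sites of a restriction enzyme, so tiles with few CpGs are covered only where such sites lie close together.

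ER-Hoxa9 joins the homeodomain factor Hoxa9 to the ligand-binding domain of the estrogen receptor and works only in the presence of estradiol, and Lys-GFP reports lysozyme, a gene of maturing myeloid cells. All cells were from strain C57BL/6, carried the fusion and the reporter, and grew with stem cell factor. The groups were cells kept in estradiol (1 library), cells deprived of it for 24, 40, 56 or 72 h with a later return of 96, 80, 64 or 48 h respectively (2 libraries each), and cells deprived of it for 120 h (2 libraries). Since the return was shorter where the absence was longer, absence and return cannot be told apart. Whether replicates were separate cultures is not stated, and p-values reflect only the spread of these libraries, which may be technical. Expression was not measured, so the cell label was not checked against marker genes. In bulk DNA a level of a tile is a share of reads, and differences between cells, between alleles and between neighbouring CpGs all enter it.

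Depth ran from 8234933 to 46899896 CpG-read observations per library. Over the partly methylated sparse tiles the median number of observations per tile was 66 in the library kept in estradiol. It was 87 and 251 in the 24 h libraries, 43 and 55 (40 h), 49 and 48 (56 h), 180 and 127 (72 h), and 246 and 172 (120 h). The 40 h and 56 h libraries were thus the least precise for these tiles.

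Most of the tiles lay near the upper bound. Of the 4554, 2578 (56.6%) had a pooled methylation of 80 to 90%, 1039 lay at 70 to 80%, 567 at 60 to 70%, and 370 (8.12%) at 50 to 60%. Tiles with fewer CpGs were somewhat less methylated, with a median pooled level of 78% at 3 CpGs and 83.9% at 8. The share of sparse tiles that were partly methylated went from 24.3% at 3 CpGs to 20.4% at 9. The level was within 50 to under 90% in each of the 11 libraries for 1867 tiles (41%), and in at least 6 libraries for 4335 (95.2%).

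The tiles nearest to each bound were picked by the pooled level that the rule used, so their closeness to it is by construction. The members closest to the lower bound were chr5:76792001-76792500 (pooled 50%) and chr1:133470501-133471000 (50.02%), and the closest sparse tiles outside it were chr12:109523001-109523500 (49.88%) and chr5:115453001-115453500 (49.87%). At the upper bound chr4:115215001-115215500 and chr6:124752001-124752500 (both 89.99%) were inside, and chr3:64753001-64753500 and chr4:49046001-49046500 (both 90%) were outside.

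The mean methylation of the 4554 tiles was closely alike in all libraries. It was 79.25% in the library kept in estradiol. The 24 h libraries had 78.82 and 78.66%, the 40 h libraries 78.75 and 78.89%, the 56 h libraries 78.69 and 78.72%, the 72 h libraries 78 and 78.59%, and the 120 h libraries 78.32 and 78.49%. Every library that had been without estradiol lay below the 1 library kept in it, and all 11 means lay within a narrow band. Group means were lower than the estradiol library by 0.51 points (24 h), 0.43 points (40 h), 0.55 points (56 h), 0.95 points (72 h) and 0.85 points (120 h), with a pooled SD between replicates of 0.206 points (5 groups of n = 2). The 2 libraries at 72 h had an SD of 0.42 points, the widest of the 5 groups, and overlapped those at 120 h.

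The tiles most like them were also highest in the estradiol library. Sparse tiles at 90% or more had a mean of 96.07% there, 95.91% ± 0.013 (SD, n = 2) at 24 h, 95.62% ± 0.12 at 72 h and 95.73% ± 0.15 at 120 h. Denser tiles at 50 to under 90% had 79.49%, 78.9% ± 0.0033, 78.59% ± 0.63 and 78.57% ± 0.16. The lower mean after withdrawal was thus measured in these other tiles too. No p is given for these means, since the tiles were chosen by their level in the same libraries.

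**Figure D1:**
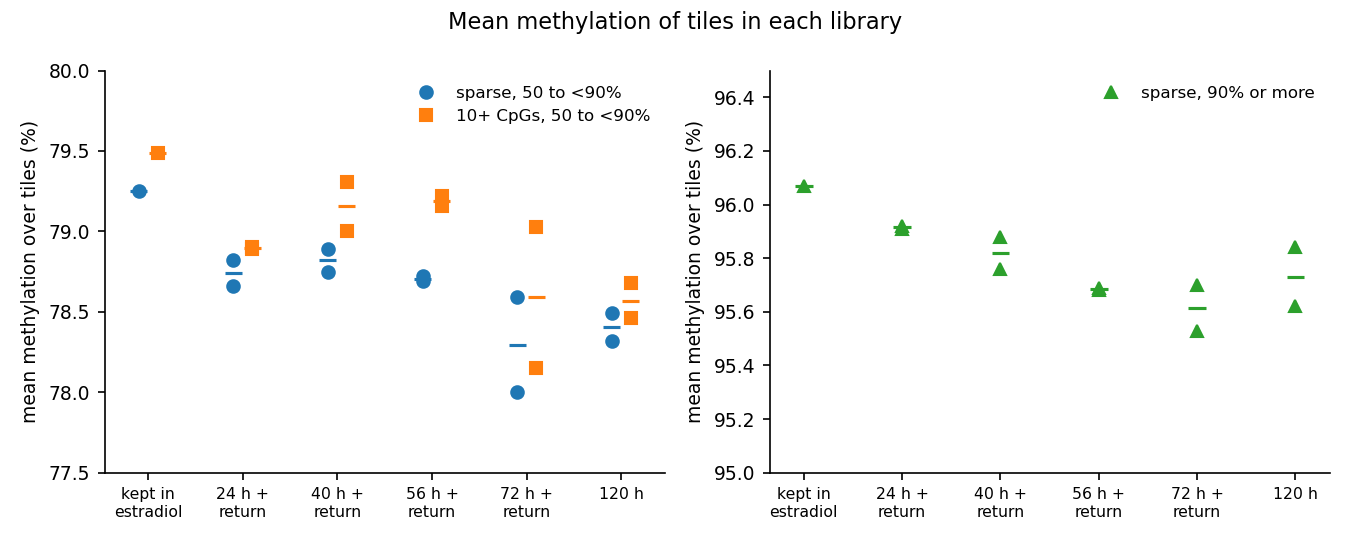
Mean methylation over tiles in percent (y axes, each on its own scale that does not start at 0) in the 11 libraries, ordered by hours without estradiol on the x axes, with 1 point per library and a bar at each group mean. The partly methylated sparse tiles (circles) lie between 78 and 79.25%, highest in the single library kept in estradiol, as do the denser tiles (squares) and the sparse tiles at 90% or more (triangles, right panel).

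Single CpGs inside a tile differed widely. In the 4553 tiles with CpGs of at least 30 pooled reads (26850 CpGs), 49.2% of the CpGs were at 90% or more, 38% lay at 50 to 90%, 9.68% at 20 to 50% and 3.2% at 20% or under. The median SD between the CpGs of a tile was 20.1 points (quartiles 14.2 and 27.6), and the median distance from its lowest to its highest CpG was 48 points. A CpG at 90% or more was present in 4213 tiles (92.5%). All CpGs lay at 50 to under 90% in 140 tiles (3.07%), and 701 tiles (15.4%) held both a CpG at 20% or under and one at 80% or over.

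The spread between CpGs was wider in the less methylated tiles, with a median SD of 28.5 points at 50 to 60%, 28.3 at 60 to 70%, 25 at 70 to 80% and 16.3 at 80 to 90%. Denser tiles of the same level had a similar spread (median SD 19.6 points, 37% of CpGs at 50 to 90%), and 24.7% of them held both a CpG at 20% or under and one at 80% or over. This share also depends on the number of CpGs per tile, with 40176 CpGs in the 2585 denser tiles and 26850 in the 4553 sparse ones. CpGs at 20% or under were 3.29% of the former and 3.2% of the latter. Sparse tiles at 90% or more had a median SD of 2.44 points, where a mean close to full methylation leaves little room for spread. Restricted to CpGs that each of the 11 libraries covered with 10 reads or more, 413 of the sparse partly methylated tiles remained (1438 CpGs), with a median SD of 15.8 points and 7.51% that held both kinds of CpG. All of the CpGs so covered lay at 50 to under 90% in 64 of these tiles (15.5%). These tiles had fewer covered CpGs each, which also affects both shares.

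**Figure D2:**
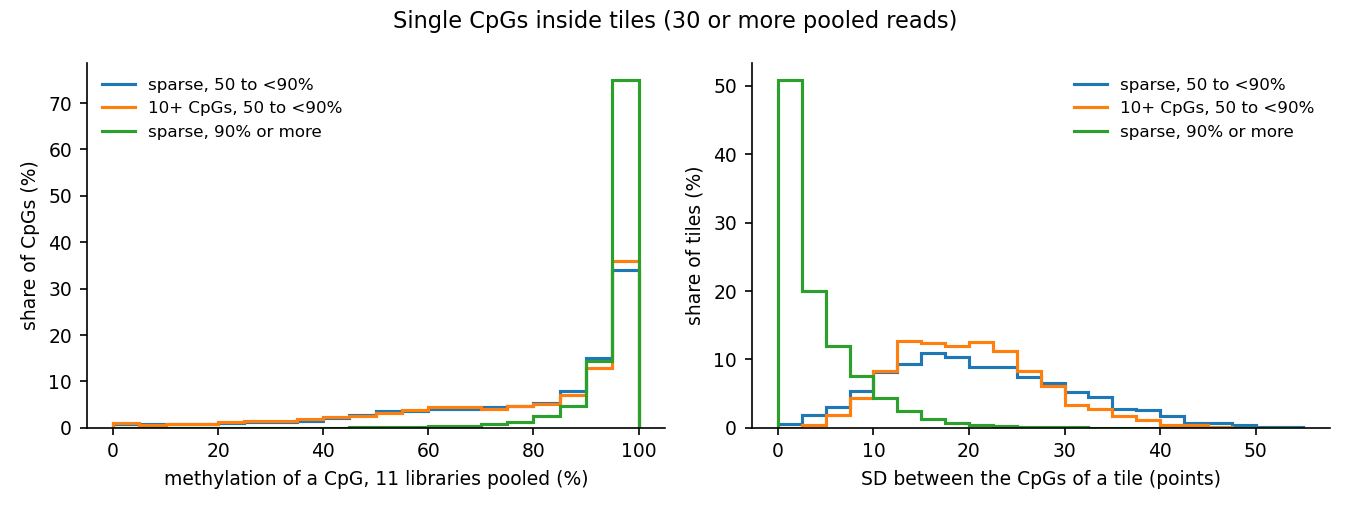
Left, share of CpGs in percent (y axis) by methylation of the CpG over the 11 pooled libraries (x axis); right, share of tiles in percent by SD between the CpGs of a tile in percentage points. The partly methylated sparse tiles and the denser tiles run closely together, with the largest share of CpGs near full methylation and a tail down to 0. The SDs of sparse tiles at 90% or more pile up near 0.

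Neighbouring CpGs were alike when close and less so with distance. Among pairs of neighbours with at least 100 pooled reads each, the median absolute difference was 6.66 points at 2 to 10 bp (5529 pairs), 11.7 at 11 to 25 bp (5662 pairs), 17.1 at 26 to 50 bp (1673 pairs), 23.5 at 51 to 100 bp (3006 pairs) and 23.9 beyond 100 bp (2344 pairs). The share of pairs at least 30 points apart was 16.9% in the closest class and 42.1% in the farthest. In the denser tiles of the same level the median differences were smaller in each class, at 4.9, 9.84, 12, 16.4 and 14.9 points. Close CpGs are often read on the same fragments, so their values share reads.

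**Figure D3:**
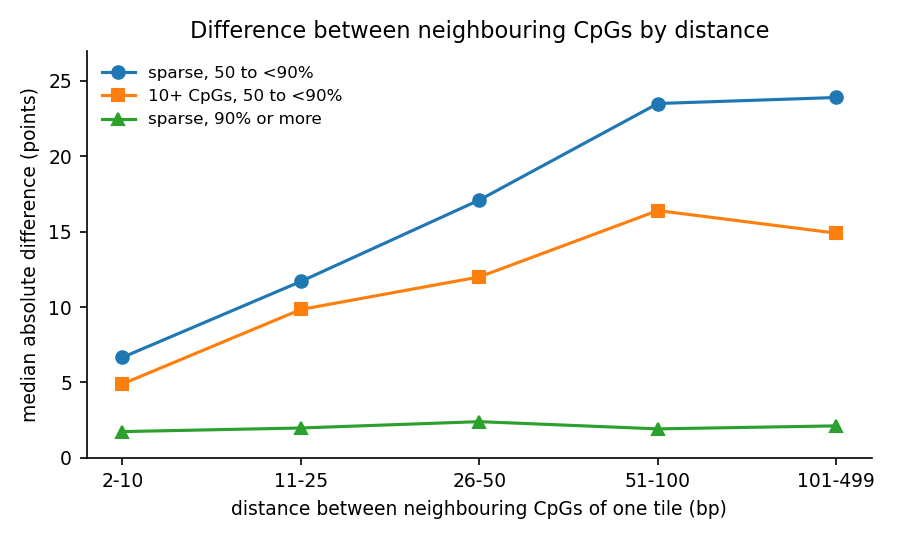
Median absolute difference in methylation between neighbouring CpGs of a tile in percentage points (y axis) by the distance between them in bp (x axis, 5 classes), for CpGs with at least 100 pooled reads. The partly methylated sparse tiles rise from 6.66 to 23.9 points, above the denser tiles in every class, and sparse tiles at 90% or more stay between 1.74 and 2.4 points.

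The pattern of high and low CpGs within a tile was nearly the same in different groups. Deviations of CpGs from their tile's mean were correlated between the summed 24 h and the summed 120 h libraries with Pearson's r = 0.956 over 24356 CpGs of 4521 tiles. This r is a description across CpGs, which share tiles and reads. Replicates of 1 group, each less deep, gave 0.934 at 24 h, 0.928 at 72 h and 0.941 at 120 h. Of 817 CpGs at 20% or under at 24 h, 683 (83.6%) were also at 20% or under at 120 h, and 2 were at 50% or more. Of 11984 CpGs at 90% or more at 24 h, 10710 (89.37%) were so at 120 h, and 4 were under 50%.

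The extremes show both kinds of tile. In chr18:64609501-64610000 all 8 CpGs lay between 57.4 and 60.8% (SD 1.03 points), and in chr18:30427001-30427500 all 5 lay between 68.8 and 71.3% (SD 1.14 points). At the other end stood chr11:102145501-102146000, called tile E, with an SD of 48.4 points. Its CpGs at 105 and 115 bp from the tile's start had 94.3 and 81.5%, the CpG at 165 bp had 6.47% (3059 pooled reads), the CpG at 182 bp had 95% (3176 pooled reads), and those at 422 and 439 bp had 0.714 and 0%. The tile's other CpGs had 130 to 280 pooled reads, and the autosomal median was 133 per CpG. The CpGs at 165 and 182 bp thus weigh most in the level of the tile. Whether their reads come from more than 1 copy was not tested. The neighbours at 165 and 182 bp kept their levels in the 24 h, 72 h and 120 h groups, with 7.48, 6.24 and 4.61% at the first and 94.8, 94.6 and 95% at the second. In chr10:61054501-61055000 (SD 47.5 points) the first 3 CpGs had 99.3, 99.6 and 86.2%, and the last 2 had 14.1 and 4.26%. The CpG at 182 bp in tile E lay between positions of little methylation, whereas the tile on chromosome 10 changed over from high to low once.

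The tiles were mostly isolated among the covered tiles. An adjacent tested tile was present for 777 of them (17.1%), against 16.7% of sparse tiles at 90% or more and 43% of the denser tiles. Of these 777, 320 (41.2%) had a tile at 50 to 90% beside them, 284 (36.6%) a tile at 90% or more, 86 (11.1%) a denser tile under 20%, 62 (7.98%) a tile at 20 to 50% and 58 (7.46%) a sparse tile under 20%. A tile can have neighbours on both sides, so these overlap. A neighbour at 50 to 90% was found for 47.8% of the denser tiles of the same level with a neighbour, for 13.6% of such sparse tiles at 90% or more, and for 9.41% of all such tested tiles. A denser tile under 20% lay beside 8.72% of the denser tiles of the same level and 1.48% of sparse tiles at 90% or more. The nearest denser tile under 20%, a level typical of CpG islands, was a median of 100 kb away (quartiles 30.6 and 306 kb), and 187 of the tiles (4.11%) lay within 2 kb of one. That share was 6% for denser tiles at 50 to under 90% (median distance 96 kb), 2.09% for sparse tiles at 90% or more and 48.4% for sparse tiles under 50%. Runs of adjacent members were short, with 4386 single tiles, 73 pairs, 6 runs of 3 and 1 run of 4.

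Chromosomes 5 and 19 were read more deeply than the others, and more of their sparse tiles met the depth minimum. Chromosome 5 had 615 of the members (13.5% of all members), the most of any chromosome, and chromosome 19, a short one, had 268 (5.88%). The pooled median depth per CpG was 173 and 183 reads on these chromosomes, against a median of 133 over the autosomes, and 31 and 34.1% of their sparse tiles reached the depth minimum, against 13.1 to 17.5% on the others. As a share of the tested sparse tiles, the members were 21.8 and 22.3% there, within the range of the other autosomes (19.2% on chromosome 17 to 27.3% on chromosome 6). Chromosome copy number was not measured.

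Replicate libraries differed by more than independent reads would in these tiles. The chi-square per degree of freedom between the 2 replicates was 1.49 in the 24 h group, 1.39 (40 h), 1.46 (56 h), 1.63 (72 h) and 1.56 (120 h), where 1 is expected from independent reads. It was 1.89 to 2.23 in denser tiles of the same level and 1.22 to 1.33 in sparse tiles at 90% or more. One read can cover more than 1 CpG and then adds an observation for each of them, so a value above 1 does not separate a spread between libraries from counting. The median absolute difference between replicates was 3.73, 5.71, 5.94, 3.61 and 3.14 points, and 10.3, 26.3, 27.3, 9.11 and 5.09% of the tiles differed by at least 10 points. A change of 10 points in a single tile was therefore common between replicates at 40 h and 56 h.

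The range over libraries was examined where depth was greatest. Among the 42 with at least 100 observations in every library, the range over the 11 libraries had a median of 8.85 points (2.6 to 25.5). The narrowest was chr5:140914501-140915000, with a lowest value of 86.6%, a median of 87.1% and a highest of 89.2%. The next were chr19:29049501-29050000 (pooled 88.61%) and chr6:47614501-47615000 (79.13%). The widest was chr5:122354501-122355000, from 67.7% in 1 library at 40 h to 93.2% in 1 library at 56 h, and its 120 h libraries (82.7 and 80.1%) overlapped its 24 h libraries (79.7 and 82.8%). It was followed by chr12:46296501-46297000 (pooled 60.87%) and chr17:6491501-6492000 (61.41%). Denser tiles at 50 to under 90% had a median range of 12.7 points (468 tiles), sparse tiles at 90% or more 4.93 points (76 tiles), and all tested tiles of that depth 1.54 points (11576 tiles).

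The first comparison asked how cells without estradiol for 120 h differed from cells that had lost it for 24 h and regained it. Of the 4554 tiles, 3 fell and 0 rose at a Benjamini-Hochberg adjusted p under 0.05 in a quasi-binomial model moderated as by limma over 49760 tiles, against a background of 0.0121% of all tested tiles lower and 0.00804% higher. At an unadjusted p under 0.05 there were 339 (7.44%, background 6.93%). The difference of group means had a median of -0.34 points (quartiles -2.85 and 2.19), against -0.01 over all tested tiles, -0.22 in sparse tiles at 90% or more and -0.35 in the denser tiles. It was within 10 points for 97.2% of the tiles, with 75 lower and 52 higher by at least that much. The share within 10 points was 99.34% over all tested tiles, 97.87% in the denser tiles and 100% in sparse tiles at 90% or more. Both 120 h libraries lay below both 24 h libraries in 896 tiles (19.7%, background 16.7%) and above them in 677 (14.9%, background 15.9%). These shares lay close to those of all tested tiles. For a single tile, the 95% interval of the difference between the summed reads of the groups had a median half-width of 6.6 points. It is not the interval of the difference of unweighted means.

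The 3 tiles that fell fell by more than 20 points. Tile A, chr2:119122501-119123000, has 8 CpGs. It had 90.1% in the estradiol library, 93.3 and 96.3% at 24 h, 84.9 and 89.5% (40 h), 78.8 and 87.5% (56 h), 63.3 and 63.1% (72 h), and 58.2 and 55.4% (120 h). All libraries of 72 and 120 h lay below all others, and 120 h lay below 72 h. Between 24 h (94.8% ± 2.1, SD, n = 2) and 120 h (56.8% ± 2) it fell by 38.04 points, with an adjusted p of 4.62e-06 in the limma-moderated model. The difference from the estradiol library did not pass (adjusted p 0.194).

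Inside tile A the CpGs did not fall alike. From the summed 24 h libraries to the summed 120 h libraries, the CpG 166 bp from the tile's start went from 96.1 to 6.92% (77 and 130 reads), with 14% at 72 h. The CpG at 213 bp went from 100 to 11.4% (33 and 44 reads), that at 112 bp from 95.3 to 38.4%, and that at 186 bp from 93.8 to 65.4%. The CpGs at 4 and 11 bp had 96 and 100% at 24 h and 98.1 and 97.1% (120 h). The CpG at 209 bp, 4 bp before the one at 213 bp, had 96.8 and 78%. No test was run on single CpGs.

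Tile B, chr19:3700501-3701000, has 4 CpGs. It had 79.5% in the estradiol library, 83.3 and 83.3% at 24 h, 86.2 and 85.5% (40 h), 87 and 70.8% (56 h), 69.6 and 68.6% (72 h), and 56.2 and 56.7% (120 h). The 120 h libraries were the lowest of the 11. From 24 h to 120 h it fell by 26.84 points (83.3% ± 0 and 56.5% ± 0.35, SD, n = 2, adjusted p 0.00715 in the limma-moderated model). Its CpGs at 372 and 445 bp went from 86.4 to 43.3% and from 83 to 28.4%, while those at 172 and 181 bp had 87.8 and 73.4% at 24 h and 91.5 and 80.5% (120 h).

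Tile C, chr18:50213501-50214000, has 4 CpGs. It had 92.5% in the estradiol library, 95.7 and 95.1% at 24 h, 79 and 92.1% (40 h), 75.8 and 58.3% (56 h), 81.8 and 80.4% (72 h), and 73 and 74.6% (120 h). The 120 h libraries lay below those of 24 h and 72 h but not below both of 56 h, where the tile had 33 and 36 observations. From 24 h to 120 h it fell by 21.64 points (95.4% ± 0.47 and 73.8% ± 1.2, SD, n = 2, adjusted p 0.0258 in the limma-moderated model). Its CpG at 157 bp went from 96.8 to 71.4% and that at 151 bp from 78.8 to 50.7%.

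Of the 3 calls, not all held when 1 library was left out. Leaving out 1 library gave 0 tiles lower without 24 h replicate 2, 1 without 24 h replicate 1 or without any 1 of the 72 h and 120 h libraries, and 2 without either 56 h library. A group reduced to 1 library takes its spread from the other groups. Over the 21 alternatives that refitted these tiles, the difference ran from -39.52 to -36.55 points in tile A. It ran from -27.08 to -26.59 in tile B and from -22.46 to -20.82 in tile C. Most of these alternatives could not change it, since it moves only where a 24 h or 120 h library or some CpGs are left out. The median difference over all members was -0.60 points without 24 h replicate 2 and -0.18 without 120 h replicate 1. By limma on logit values 0 were called.

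No tile rose past the threshold, and the 3 non-overlapping tiles with the smallest p in that direction are given as values. Tile D, chr2:31656001-31656500, has 9 CpGs and had 44.3% in the estradiol library, 38.9 and 39.5% at 24 h, 56.7 and 63.4% (40 h), 63 and 47.2% (56 h), 56 and 69.4% (72 h), and 63.2 and 66.4% (120 h). The estradiol and 24 h libraries were its 3 lowest. Its difference between 120 h and 24 h was 25.63 points (adjusted p 0.164 in the limma-moderated model). In chr9:44314001-44314500 the difference was 10.62 points (adjusted p 0.562 in that model). In chr5:8912501-8913000 it was 8.37 points (adjusted p 0.662 in that model). In the last tile the first 3 CpGs had 97.8 to 98.9% and the last 5, at 348 to 375 bp, had 47.3 to 50.5% over the pooled libraries. Only the last 5 differed by more than 5 points between the groups, with 39 to 42.6% at 24 h and 49.1 to 53.6% at 120 h.

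**Figure D4:**
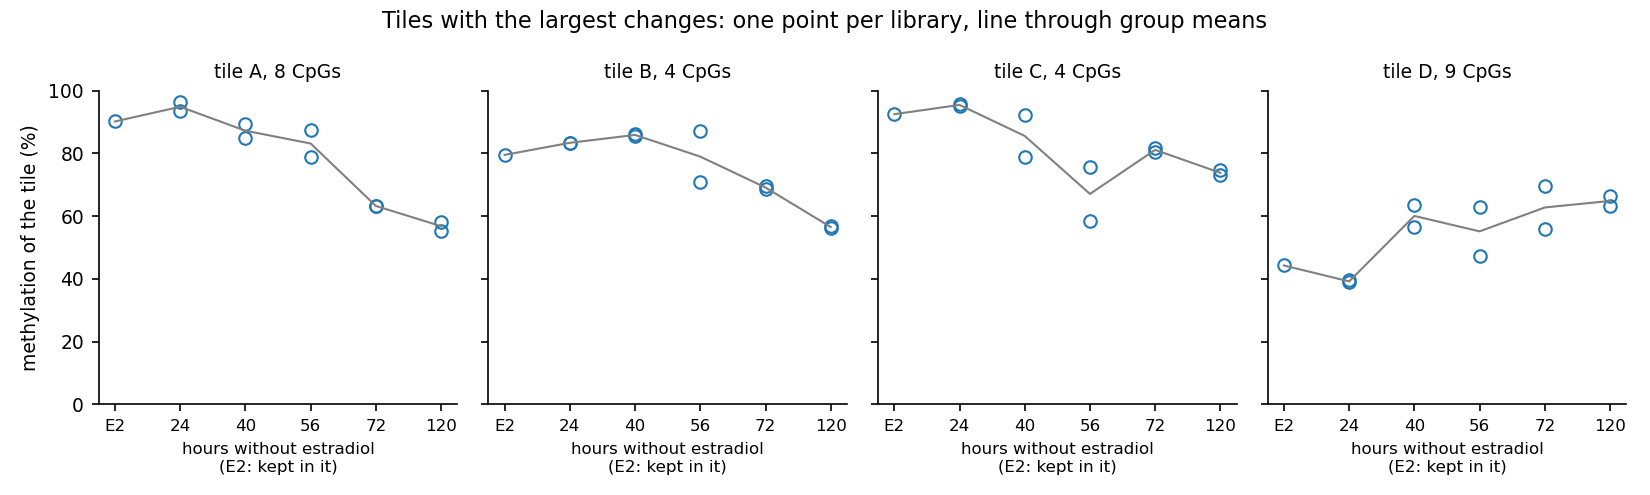
Methylation in percent (y axes, 0 to 100) of tiles A, B, C and D in each library, by hours without estradiol (x axes; E2 is the library kept in estradiol), with 1 open circle per library and a line through group means. Between 24 h and 120 h tile A fell by 38.04 points, tile B fell by 26.84 and tile C fell by 21.64, and tile D was 25.63 points higher without passing the threshold.

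**Figure D5:**
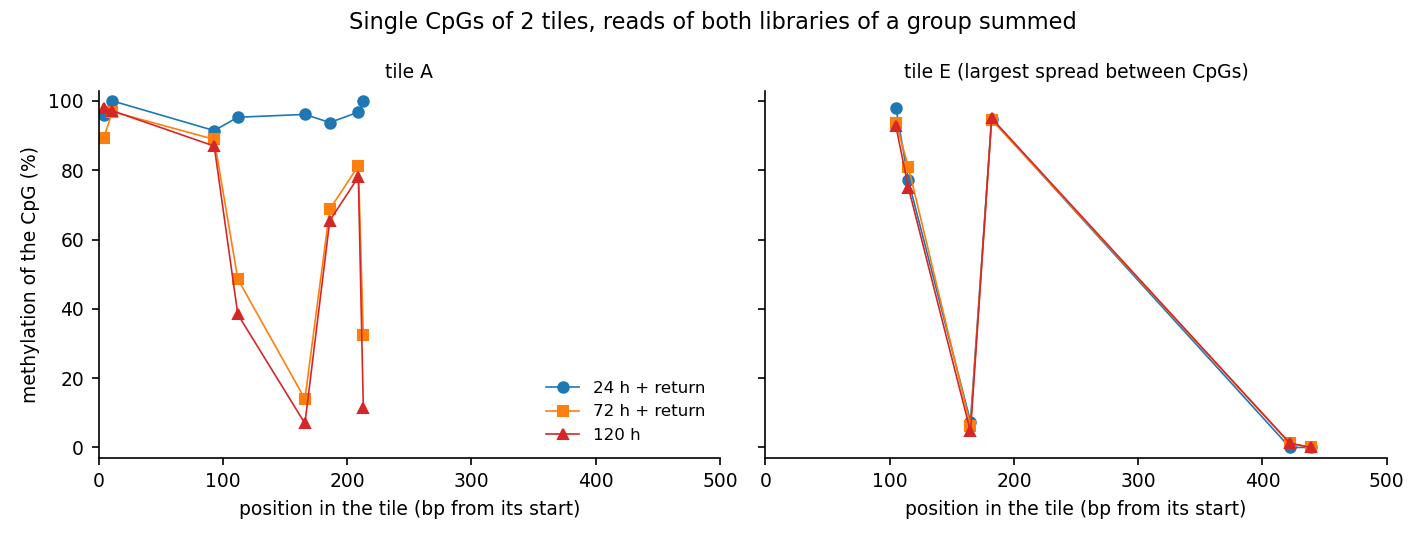
Methylation of single CpGs in percent (y axes) by position from the tile's start in bp (x axes) in tiles A and E, with the reads of both libraries of a group summed (24 h, 72 h and 120 h). In tile A the CpGs from 112 to 213 bp are lower at 72 h and 120 h while those at 4 and 11 bp stay above 89%, and in tile E the 3 groups lie on each other.

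A fit of only the 24 h and 120 h libraries, in tiles deep enough in these 4, covered more tiles and called more of them. It tested 108711 tiles, of which 19375 were sparse and at 50 to under 90% and thus lay outside the depth rule in part. Of the 19375, 38 were lower (0.196%, background 0.104%) and 7 higher (0.0361%, background 0.0929%), with a median difference of -20.5 points among the 38. The spread was almost wholly borrowed across tiles there (284 prior degrees of freedom). Among the 4554 tiles of the depth rule, 17 were lower and 4 higher. The 17 had differences from -38.04 to -2.89 points and hold tiles A, B and C. The next largest falls were -20.55 points at chr17:46723501-46724000, -20.15 at chr5:3382501-3383000, -20.04 at chr16:22295001-22295500 and -19.98 at chr3:97723001-97723500. The smallest, -2.89 points, was at chr11:74037501-74038000, a tile of unusual depth with 1701 to 11845 observations per library. Its 120 h libraries (76.26 and 80.76%) overlapped its 24 h libraries (82.36 and 80.44%). The 4 higher were tile D, chr9:44314001-44314500, chr1:184189501-184190000 (9.98 points) and chr19:53575001-53575500 (9.6 points).

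The 72 h and estradiol libraries did not enter that fit, but they did enter the depth rule and the pooled level that chose the members, so their values are given as a description. In the 17 lower tiles the 72 h mean was below the estradiol library in 16, with a median difference of -11.4 points (-38.6 to 1.58), against 55.9% of all members below it. In the 4 higher tiles it was above in 3. Over all 4554 tiles, in contrast, the difference of 120 h and 24 h and the difference of 72 h and estradiol, which share no library, were hardly related (Pearson's r across tiles 0.0611, the same sign in 51.2%). Over all tested tiles these values were 0.064 and 50.4%.

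In the comparison of 72 h with 24 h, both followed by return, 1 tile fell and 0 rose (background 0.00402% each way), and 297 (6.52%, background 6.94%) had an unadjusted p under 0.05. The 1 was tile A, which fell by 31.59 points with an adjusted p of 5.91e-05 in the limma-moderated model. It did not pass without 24 h replicate 2, 72 h replicate 1 or 72 h replicate 2. Over all members the median difference was -0.46 points, with -0.71 without 24 h replicate 2 or 72 h replicate 2 and -0.14 without 72 h replicate 1. Both 72 h libraries lay below both 24 h libraries in 887 tiles (19.5%, background 16.7%) and above them in 628 (13.8%, background 15.3%). By at least 10 points, 82 tiles were lower and 59 higher. The share within 10 points was 96.9% of the members and 99.12% of all tested tiles. It was 97.52% of the denser tiles and 99.95% of sparse tiles at 90% or more. The tiles next by p did not pass. Of these, chr5:32726001-32726500 had 96.8% in the estradiol library, 86 and 84.8% at 24 h, 61.1 and 76.9% (40 h), 70.6 and 40.5% (56 h), 64 and 52.4% (72 h), and 69.8 and 63.8% (120 h). Its estradiol and 24 h libraries were the 3 highest. In chr3:97723001-97723500 the difference was -23.77 points and in chr6:8558501-8559000 it was -10.66 points. The tiles with higher values at 72 h, chr19:6498501-6499000 (15.3 points), tile D (23.55 points) and chr2:6284001-6284500 (9.31 points), did not pass. A fit of only these 4 libraries tested 106814 tiles. Of the 18958 sparse ones at 50 to under 90%, 29 were lower (0.153%, background 0.115%) and 6 higher (0.0316%, background 0.0449%), and 10 and 1 of these were among the 4554.

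Against the library kept in estradiol 0 tiles passed, at 120 h or at 72 h (background 0% in each direction), and the single library there gives no replicate spread of its own. At an unadjusted p under 0.05 there were 316 tiles at 120 h (6.94%, background 5.18%) and 331 at 72 h (7.27%, background 5.42%), and limma on logit values also called 0. The median difference was -0.91 points at 120 h and -1.02 at 72 h, against -0.61 and -0.67 in sparse tiles at 90% or more and -1.04 and -1.05 in the denser tiles. Both 120 h libraries lay below the estradiol library in 1998 tiles (43.9%, background 38.9%) and above it in 1487 (32.7%, background 33.9%). Both 72 h libraries lay below it in 1971 (43.3%, background 37.8%) and above it in 1441 (31.6%, background 31.2%). Of sparse tiles at 90% or more, 45.35% lay below it at 120 h and 43.83% at 72 h, and 31.31 and 28.86% above. Of the denser tiles, 45.49 and 43.75% lay below it, and 31.53 and 29.05% above. The median half-width of the 95% interval of a tile, again from summed reads, was 11.8 and 12.1 points. These comparisons share that library, so a single odd value in it enters both.

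Among the tiles with the smallest p against the estradiol library, some had a value in it outside the range of all other libraries. In chr8:122223501-122224000 it had 26.9% (52 observations), and the 10 other libraries had 58.7 to 78.4%. In chr2:130881001-130881500 it had 55.3% (76 observations), against 75.8 to 89.9% in the others. In chr17:46723501-46724000 it had 98.3% (59 observations), the 24 h libraries had 91.1 and 88.3%, and the other 8 had 67.3 to 75%, while the Wilson 95% interval of the estradiol value (91 to 99.7%) reached the first of the 24 h values. The adjusted p of 120 h against estradiol was 0.194, 0.559 and 0.194 for these 3 tiles in the limma-moderated model.

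Over the 8 returned libraries, a slope with the hours without estradiol passed in 1 tile downward and in 0 upward (background 0.00605% and 0.00403% of 49581 tiles), and 284 tiles (6.24%, background 6.48%) had an unadjusted p under 0.05. The 1 was again tile A (adjusted p 8.92e-05 in the limma-moderated model), which did not pass without 24 h replicate 2, 72 h replicate 1 or 72 h replicate 2. The median slope over the members was -0.23 points per 24 h, and -0.07 without 72 h replicate 1. Next by p, without passing, were chr16:22295001-22295500, with a difference of -27.26 points between the 72 h and 24 h means, and chr8:122126501-122127000, with -18.8 points.

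The size of the differences went with the level of the tile. The SD over tiles of the difference between 120 h and 24 h was 5.54 points at 50 to 60%, 5.63 at 60 to 70%, 4.72 at 70 to 80% and 3.5 at 80 to 90%, and a share of methylated reads also has less counting error near 100%. The medians in these 4 classes were 0.48, -0.41, -0.25 and -0.42 points. Falls of at least 10 points numbered 14, 23, 22 and 16, and rises 9, 22, 14 and 7.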

How the data were processed

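RRBS data of 11 libraries were used. The deposited tables list, per CpG, the counts of methylated and of all reads. They also hold a deposited score, equal to 1000 times the methylated share, which was not tested. Coordinates are in mm9, per the submitters' processing notes. The aligner, the caller and the treatment of PCR duplicates are not given in the sources used here. Intervals cover the spread between libraries and counting error, not errors of conversion. No gene annotation of mm9 was used, so no gene was assigned.

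Counts were summed in 500-bp tiles. Of 49832 deep enough, 72 whose reads were all methylated or all unmethylated were left out, and likewise in fits of fewer libraries (49581 left for the slope). A quasi-binomial logistic model took 1 mean per group over all 11 libraries (slope: the 8 returned libraries) in each tile, and deviance F tests were two-sided. Dispersions were moderated as by limma 3.58.1 (squeezeVar, rewritten in Python 3.11.15 with numpy 2.4.6 and scipy 1.17.1, tested on simulated data; 10.67 prior and 5 residual degrees of freedom) and kept at 1 or more. P-values were adjusted by Benjamini-Hochberg over all 49760 tiles. The library kept in estradiol has no replicate, so its spread was taken from the others. Differences are of unweighted group means.

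Members, comparisons and lists were chosen with earlier results of these data known. Named tiles are, per comparison, up to 10 each way that passed without overlap between groups and have the largest difference, or, where fewer than 3 passed, the 3 with the smallest p. The 3 tiles with the smallest and the 3 with the largest range, and those nearest the bounds, were added. Single CpGs are given for the tiles named first between 120 h and 24 h and for the 2 with the smallest and the 2 with the largest spread.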

Additional observations from a re-analysis of the deposited data

How the results depend on the processing

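Several counts of calls depended on the processing. For tiles lower at 120 h than at 24 h, at 72 h than at 24 h, and with the slope, limma on logit values and the replicate block each gave 0. A minimum of 60 observations (387 members) also gave 0, but it leaves out tiles A, B and C, so it does not test their calls. Differences between replicates 1 and 2 had correlations of -0.014 to 0.043 across the members between groups. Counting error is a large part of such differences, so these values cannot show whether same-numbered libraries were paired. The block with only tiles at 5 to 95%, added after seeing the data, gave 5 lower at 120 h. Tiles with 3 to 6 CpGs gave 0 lower at 72 h against 24 h and 0 with the slope, where tile A, with 8 CpGs, is left out by construction. Fits of only the compared libraries gave 38 lower and 7 higher at 120 h and 29 and 6 at 72 h against 24 h. With only tiles at 5 to 95% too, added after seeing the data, they gave 27 lower and 1 higher at 120 h and 15 lower at 72 h against 24 h, and, against estradiol, 6 lower and 2 higher at 120 h and 10 and 4 at 72 h. Fits of only the compared libraries were also run later on the tiles of the depth rule, with 4554 members. They gave 12 lower and 1 higher at 120 h and 5 lower at 72 h against 24 h. Against estradiol they gave 0 at 120 h and 0 at 72 h. Leaving out each replicate gave 0 to 3 lower at 120 h, 0 to 1 at 72 h and 0 to 1 with the slope. Median differences then ran from -0.60 to -0.18 (120 h) and -0.71 to -0.14 points (72 h) against 24 h, from -1.27 to -0.63 (72 h) against estradiol, and the slope from -0.32 to -0.071 points per 24 h. Median differences from estradiol were -1.31 (72 h, 3 to 6 CpGs), -1.19 and -1.34 (120 h and 72 h, tiles at 60 to 80%) and -1.11 (120 h, only the compared libraries, with or without the 5 to 95% limit), and the slope was -0.35 at 60 observations. Group means in the order estradiol, 24, 40, 56, 72 and 120 h were 77.85, 77.34, 77.49, 77.33, 76.81 and 77.06% at 60 observations and 78.87, 78.31, 78.48, 78.4, 77.99 and 78.17% with reads summed. CpGs with 100 pooled reads gave 14% of tiles with both high and low CpGs, and CpGs with 10 reads in all libraries 7.51% and an SD of 15.8 points. No call of a named tile reversed its direction. Of the recomputed values over all members, 304 were rated as little changed and 66 as moved. Counts of calls were rated by their ratio, and means, median differences and slopes by the SD between replicates. Spreads between CpGs had limits of their own. Some of the 304 could not change, such as a median difference where the library left out was in neither group. The adjusted p of tile A at 120 h against 24 h ran from 2.35e-28 to 0.616 and passed in 18 of the 21 alternatives that refitted it, that of tile B from 4.02e-08 to 1 (13 of 21) and that of tile C from 4.04e-06 to 1 (11 of 21). The cause of the other changes was not tested. Depth limits single tiles most in the 40 h, 56 h and estradiol libraries.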
